A study of Mus musculus with 5 samples.

Results

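The 10 Notch genes described here comprise 4 ligands (Jag1, Jag2, Dll1 and Dll4), the 4 receptors (Notch1, Notch2, Notch3 and Notch4) and 2 transcriptional targets (Hes1 and Heyl). They were taken by symbol, under a rule that uses no measured value though earlier results of these data were known, and all 10 were found among the 32285 genes of the deposited matrices. Single-nucleus RNA-seq was performed on snap-frozen livers of male wild-type C57BL6/J mice, to ask how liver cell types change in metabolic dysfunction-associated steatohepatitis (MASH). The 3 chow libraries came from mice on regular chow. The 2 MASH libraries came from mice fed the AMYLIN liver NASH diet (40 kcal% fat, 20 kcal% fructose, 2% cholesterol) for 5 months from 10 to 12 weeks of age. No transgene or drug was given for either group, and diet was the one difference the labels state. Whether a library held 1 liver or several was not stated, so every p-value measures the spread between these libraries.

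Notch signalling passes between touching cells. A ligand of the Jagged or Delta-like family on one cell engages a Notch receptor on its neighbour, the receptor is cut, and its intracellular domain joins the DNA-binding protein Rbpj in the nucleus to switch on genes such as Hes1 and Heyl, which encode transcriptional repressors. In the liver, Jag1 and Notch2 are best known for bile duct formation, whereas Dll4, Notch1 and Notch4 are best known for their work in blood vessels.

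Each nucleus was placed in a lineage by its cluster, and the Notch genes took no part in the clustering. UMIs, which count individual RNA molecules, were then summed per library and lineage and expressed as CPM, the UMIs of a gene per 1000000 UMIs of that sum. The fitted tests add a scaling between libraries that CPM lacks, so their sizes can differ from ratios of CPM. A fall in the number of nuclei of a type and a fall in RNA per nucleus cannot be told apart in a sum over all nuclei of a library. Since the assay reads transcript ends with no correction for length, levels were compared between lineages and diets for 1 gene at a time.

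The libraries held 35612373 to 49137377 UMIs, and 7969 to 11574 nuclei were retained in each. Pairs of libraries shared 23 to 48 cell barcodes. Of the lineage genes, Pkhd1 stood at 658 to 1596 CPM in cholangiocyte-like nuclei and at no more than 48.4 CPM in hepatocyte-like nuclei. Ptprb stood at 1250 CPM or above in endothelial-like nuclei. Bicc1 and Hnf4a were less exclusive. Bicc1 stood at 413 CPM in cholangiocyte-like nuclei of chow replicate 3 and at 418 CPM in stellate-like nuclei of MASH replicate 2. Hnf4a stood at 164 and 161 CPM in hepatocyte-like nuclei of MASH. In chow replicate 2 it stood at 394 CPM there and at 144 CPM in immune nuclei. Chow replicate 3 stood apart, since 389 of the 396 nuclei of 1 stellate-like cluster and 319 of the 320 nuclei of 1 endothelial-like cluster came from it. MASH replicate 1 had the highest median mitochondrial share, 7.42%, and 2346 of its nuclei fell in a cluster led by mitochondrial genes that was left unnamed. Cholangiocyte-like nuclei numbered only 18, 9 and 43 in the chow libraries, against 316 and 1339 in the MASH libraries. Of the 70 in chow, 49 formed a cluster of their own with no MASH nucleus.

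Jag1 (GRCm38 chr2:137081456-137116644, minus strand), the ligand mutated in Alagille syndrome, had its highest level in MASH among the 5 lineages in cholangiocyte-like nuclei. In MASH its level there was 199 CPM in replicate 1 and 274 CPM in replicate 2. The 70 cholangiocyte-like chow nuclei gave 13 Jag1 UMIs, or 151 CPM when pooled (exact Poisson 95% interval 80.2 to 258, which covers counting error only). By library the chow level there was 96.7, 0 and 206.5 CPM, overlapping the stellate-like level. In MASH the cholangiocyte-like level lay above that of every other lineage in both libraries. Endothelial-like nuclei followed at 93.6 and 154 CPM, overlapping stellate-like nuclei at 116 and 121 CPM. In chow, stellate-like nuclei (128, 101 and 50.7 CPM in replicates 1 to 3) and endothelial-like nuclei (38.2, 60.1 and 68.8 CPM) overlapped as well. Hepatocyte-like nuclei lay below both lineages in every library, at 18.7, 11.3 and 4.43 CPM in chow against 18.8 and 25.6 CPM in MASH.

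**Figure D1:**
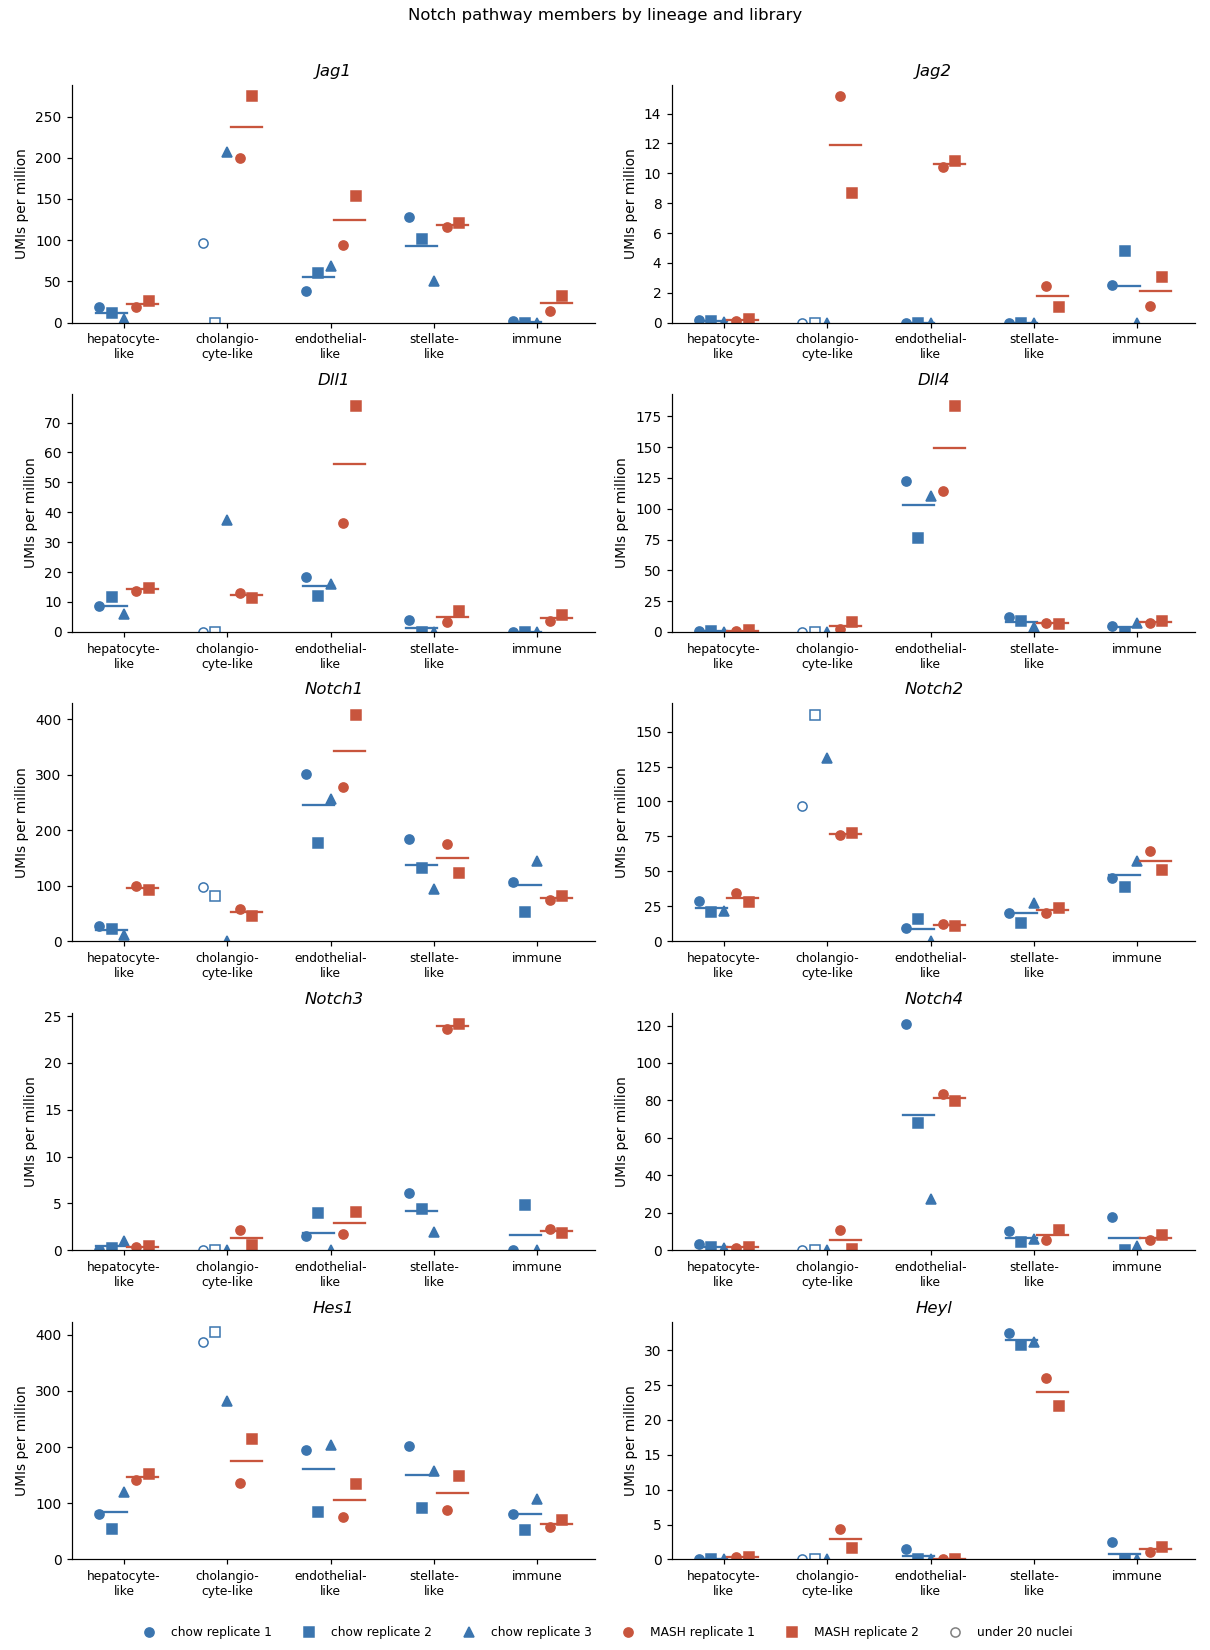
Level of each of the 10 Notch genes in CPM of the lineage's summed UMIs (y axes) in 5 lineages (x axes), with 1 point per library, chow and MASH in separate colours, and a line at the mean where at least 2 libraries are shown. Jag1 and Notch2 are highest in cholangiocyte-like nuclei in MASH, Dll4 and Notch4 in endothelial-like nuclei, and Notch3 and Heyl in stellate-like nuclei.

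Dll4 (chr2:119325784-119335962, plus strand), a Delta-like ligand of endothelium, was an endothelial transcript in these livers. Its level in endothelial-like nuclei was 122, 76.2 and 110 CPM in chow against 114 and 184 CPM in MASH, and the diets overlapped. No other lineage exceeded 12.2 CPM in any library, and hepatocyte-like nuclei ranged from 0.203 to 1.31 CPM. Dll1 (chr17:15367354-15376872, minus strand), its close relative, was spread more evenly: in MASH it reached 36.4 and 75.7 CPM in endothelial-like nuclei, 13.6 and 14.8 CPM in hepatocyte-like nuclei and 13.0 and 11.4 CPM in cholangiocyte-like nuclei. In chow the endothelial-like level of Dll1 was 18.4, 12.0 and 16.0 CPM, so the diets did not overlap.

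Jag2 (chr12:112907819-112929776, minus strand), the second Jagged ligand, was close to the limit of detection. Over all nuclei it gave 11, 6 and 3 UMIs in the chow libraries and 24 and 45 in the MASH libraries, so the diets did not overlap. In endothelial-like nuclei no Jag2 UMI was seen in chow, which allows a level of up to 2.24 CPM at a floor of 3 counts over the group, whereas the MASH libraries gave 14 UMIs. The pooled MASH level of 10.6 CPM was therefore at least 4.75-fold higher than that floor. Cholangiocyte-like nuclei held 15.2 and 8.69 CPM in MASH, and none was seen in the 70 chow nuclei, where the floor was as high as 34.8 CPM.

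Among the receptors, Notch1 (chr2:26457903-26516663, minus strand) was highest in endothelial-like nuclei, at 301, 176 and 257 CPM in chow against 277 and 408 CPM in MASH. Stellate-like nuclei came next, at 185, 132 and 93.6 CPM in chow against 175 and 124 CPM in MASH. In both lineages the diets overlapped. Hepatocyte-like nuclei did not follow that pattern. Their Notch1 level was 28.0, 22.0 and 10.8 CPM in chow, the lowest of any lineage with more than 20 nuclei in each library, against 99.98 and 92.3 CPM in MASH, above both immune values of 74.9 and 80.8 CPM.

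Notch2 (chr3:98013527-98150361, plus strand), the receptor paired with Jag1 in bile duct formation, was highest in cholangiocyte-like nuclei. It stood there at 75.8 and 77.2 CPM in MASH and at 127 CPM in the pooled chow nuclei (11 UMIs, exact Poisson 95% interval 63.6 to 228). Immune nuclei came next in both diets, with 45.5, 38.5 and 57.6 CPM in chow against 64.3 and 51.0 CPM in MASH. The hepatocyte-like level was 28.9, 20.9 and 21.7 CPM in chow against 34.2 and 28.0 CPM in MASH, and the diets overlapped. Endothelial-like nuclei had the lowest mean Notch2 level in both diets, at no more than 16.0 CPM, and overlapped stellate-like nuclei in chow.

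Notch4 (chr17:34564268-34588503, plus strand), a receptor of vessel walls, shared the endothelial pattern of Dll4. Its endothelial-like level was 121, 68.2 and 27.5 CPM in chow against 83.2 and 79.7 CPM in MASH, and chow replicate 3 lay lowest. Notch3 (chr17:32120820-32166852, minus strand), the receptor of pericytes and smooth muscle, was a stellate transcript in MASH. Stellate-like nuclei gave 3, 1 and 1 Notch3 UMIs in chow against 29 and 45 in MASH, or 6.08, 4.40 and 1.95 CPM against 23.6 and 24.2 CPM. In chow the level of Notch3 in stellate-like nuclei overlapped that in endothelial-like and immune nuclei.

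Of the targets, Heyl (chr4:123233556-123249875, plus strand) was almost limited to stellate-like nuclei, at 32.4, 30.8 and 31.2 CPM in chow against 26.1 and 22.0 CPM in MASH. No other lineage exceeded 4.33 CPM. Hes1 (chr16:30064384-30067796, plus strand) was present in every lineage. It gave 28 UMIs in the chow cholangiocyte-like nuclei, or 324 CPM (exact Poisson 95% interval 216 to 469), and stood at 136 and 214 CPM in those of the MASH libraries. In hepatocyte-like nuclei Hes1 was 80.4, 54.3 and 119 CPM in chow against 142 and 152 CPM in MASH, so the groups did not overlap. Endothelial-like nuclei held 194, 84.2 and 204 CPM in chow against 76.3 and 134 CPM in MASH, and these groups did overlap.

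Free RNA puts some transcripts of the most abundant cells into every droplet, so the share of nuclei with a UMI was set against lineages where a gene should be rare, with every nucleus thinned to 500 UMIs. Dll4 was found in 4.86, 3.77 and 4.27% of endothelial-like nuclei in chow against 5.74 and 8.84% in MASH, against at most 0.0837% of hepatocyte-like nuclei in any library. Notch1 was found in 1.26, 0.982 and 0.627% of hepatocyte-like nuclei in chow against 5.03 and 4.27% in MASH. The endothelial-like share of Notch1 was 10.9 to 12.8% in chow against 13.3 and 17.3% in MASH. Over 50 gene and lineage pairs the smallest p of the two-sided exact permutation test over libraries was 0.1, the smallest that 3 against 2 libraries allow, and its adjusted value was 0.312.

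The endothelial-like nuclei held a sinusoidal-like part, led by genes such as Stab2, and a vascular-like part, led by Vwf. Jag1 was higher in the vascular-like nuclei, at 215, 316 and 382 CPM in chow against 243 and 449 CPM in MASH. In both MASH libraries this lay above the cholangiocyte-like level of 199 and 274 CPM. In the sinusoidal-like nuclei Jag1 was 23.2, 23.0 and 21.1 CPM in chow against 42.0 and 51.0 CPM in MASH, and these groups did not overlap. Dll4 ran the other way in chow, with 131, 82.7 and 119 CPM in sinusoidal-like nuclei and 19.5, 31.6 and 52.1 CPM in vascular-like nuclei. In MASH the vascular-like level of Dll4 was 122 and 120 CPM, above every vascular-like chow value, beside 112 and 206 CPM in sinusoidal-like nuclei. In vascular-like nuclei the 7 sinusoidal markers summed to 284 to 664 CPM in chow against 805 to 909 CPM in MASH. The 7 vascular markers summed there to 1579 to 2267 and 1176 to 1630 CPM. The part of these markers in the Dll4 levels was not tested. Vascular-like nuclei numbered only 53, 24 and 51 in the chow libraries, and the Dll4 values there rest on 1, 1 and 3 UMIs. Vascular-like Dll1 gave 2, 1 and 2 UMIs in chow against 8 and 36 in MASH, or 39.1, 31.6 and 34.7 CPM against 54.1 and 188 CPM. These levels within endothelium were not tested. The split also depends on the processing. With doublets kept, the cluster led by Vwf was taken as sinusoidal-like, and no nucleus of any library was vascular-like.

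**Figure D2:**
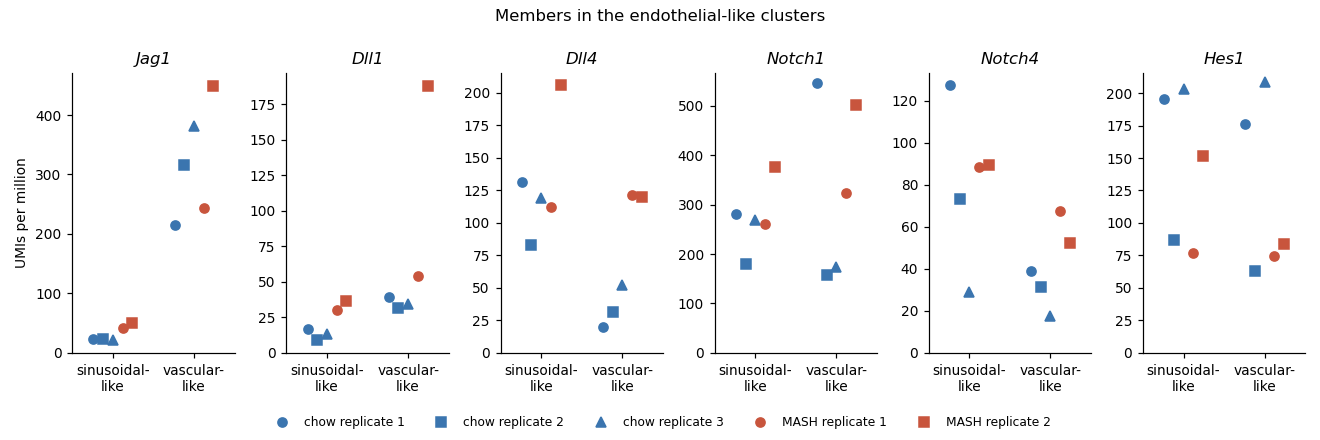
Levels in CPM (y axes) of Notch genes in sinusoidal-like and vascular-like endothelial nuclei (x axes), with 1 point per library and colours for diet. Jag1 lies higher in vascular-like than in sinusoidal-like nuclei in every library, and vascular-like Dll4 lies at 122 and 120 CPM in MASH against 52.1 CPM or less in chow. Sinusoidal markers also summed higher in the vascular-like nuclei of MASH than in those of chow.

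To see which lineages supplied each transcript to the tissue sample, the UMIs of each ligand and receptor were divided among the 5 lineages. Hepatocyte-like nuclei supplied 84.5, 90.9 and 72.3% of Jag1 UMIs in chow against 54.0 and 38.8% in MASH, although their CPM level was low. Cholangiocyte-like nuclei supplied 0.341, 0 and 4.55% of Jag1 in chow against 13.0 and 34.4% in MASH, while they held 1.83 and 6.50% of the UMIs of all genes in MASH. Stellate-like nuclei supplied 10.8, 5.53 and 10.7% in chow against 20.0 and 15.3% in MASH. For these 3 lineages the chow and MASH shares of Jag1 did not overlap.

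The receptors divided differently. Hepatocyte-like nuclei supplied 95.5, 97.6 and 94.9% of Notch2 UMIs in chow against 74.6 and 69.1% in MASH, where cholangiocyte-like nuclei supplied 3.75 and 15.8% and immune nuclei 18.2 and 9.33%. For Notch1 the hepatocyte-like share was 69.1, 89.5 and 65.6% in chow against 77.3 and 73.3% in MASH, and the diets overlapped. Endothelial-like nuclei supplied 72.1, 57.6 and 78.7% of Dll4 in chow against 60.6 and 66.0% in MASH, the largest share of any lineage in every library. Hepatocyte-like nuclei supplied most Dll1 UMIs in every library, at 94.3, 99.2 and 96.3% in chow against 87.1 and 76.8% in MASH. Stellate-like nuclei supplied 67.4 and 71.4% of Notch3 UMIs in MASH, whereas the chow shares of 60.0, 8.33 and 2.50% rest on 5, 12 and 40 UMIs. Over 40 gene and lineage pairs no difference by diet had an adjusted p under 0.05, the two-sided exact permutation test over libraries could not go below 0.1, and the smallest adjusted p was 0.167. Hepatocyte-like nuclei held 94.4 to 98.0% of the UMIs of all genes over the 5 lineages in chow against 80.6 and 78.5% in MASH, and the part of this in the shares was not tested.

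**Figure D3:**
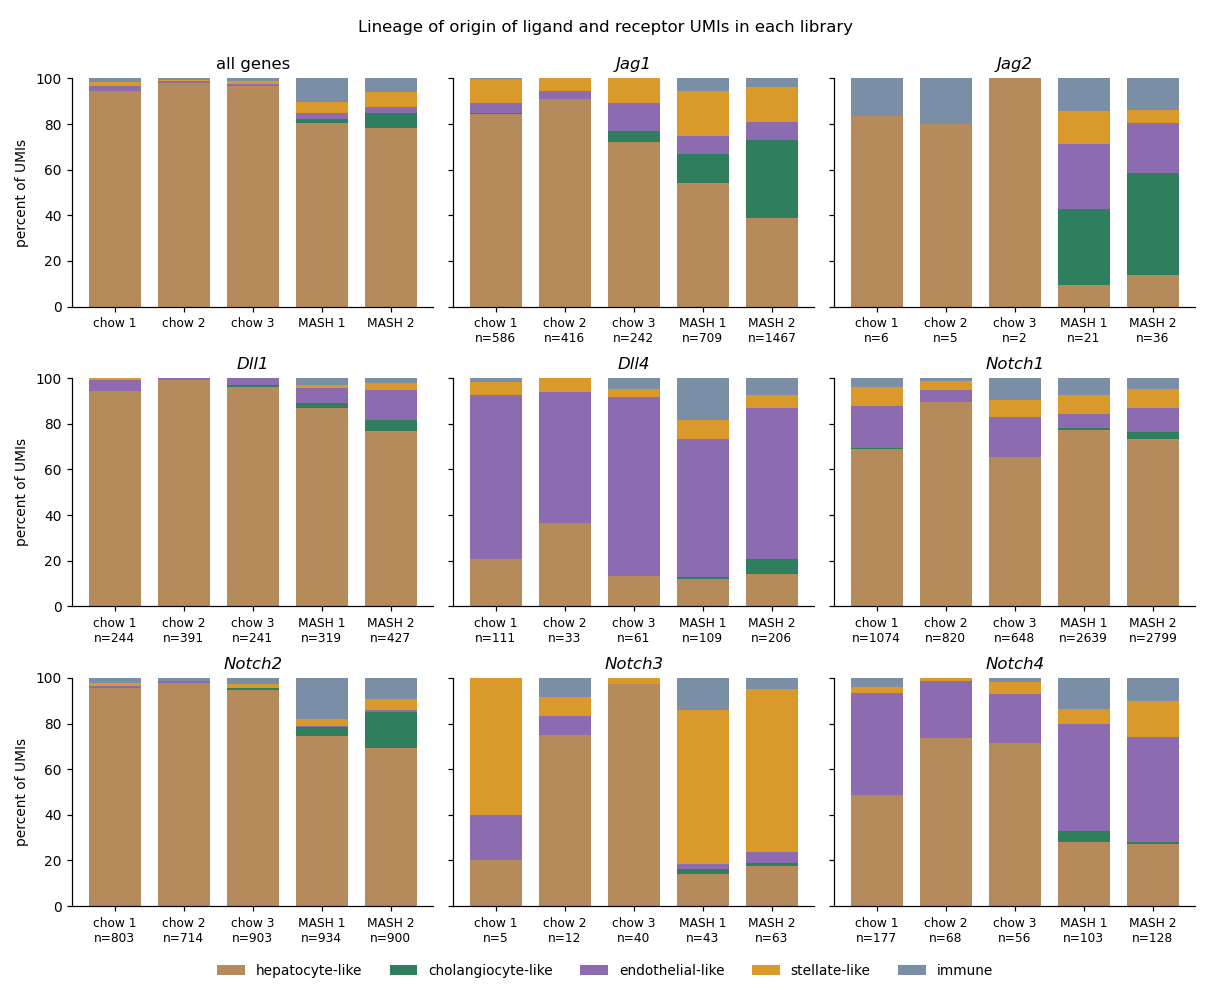
Share in percent (y axes) of the UMIs of each ligand and receptor that came from each of 5 lineages, as stacked bars from 0 to 100%, with 1 bar per library (x axes). For Jag1 the cholangiocyte-like part is 4.55% or less in the chow libraries and 13.0 and 34.4% in the MASH libraries.

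The next comparison asked which members differed by diet within hepatocyte-like nuclei. Notch1 rose 3.97-fold in MASH (log2 fold change 1.99 ± 0.30 SE, adjusted p = 0.011, edgeR quasi-likelihood test on library sums with Benjamini-Hochberg adjustment), and the diets did not overlap. It was the only 1 of the 8 members that passed the filter on low counts to be called, while 13.3% of the 14914 genes tested were called in either direction. Jag2 and Heyl had too few UMIs to be tested. The median log2 fold change of the 8 tested members was 0.41, beside -0.02 over all genes tested. Without chow replicate 3 the Notch1 call was kept (1.73, adjusted p = 0.0052), but without MASH replicate 1 (1.86, adjusted p = 0.10) or MASH replicate 2 (2.10, adjusted p = 0.073) it was lost with a similar size.

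The other tested members were not called in hepatocyte-like nuclei. Hes1 had a log2 fold change of 0.41 ± 0.42 (adjusted p = 0.52), and without chow replicate 3, where its level was the highest of the chow libraries, this became 0.92 (adjusted p = 0.034). Jag1 had 0.71 ± 0.43 (adjusted p = 0.29), Dll1 0.40 ± 0.30 (adjusted p = 0.39) and Notch2 0.08 ± 0.25 (adjusted p = 0.86). Summed markers of other cells were also higher in the hepatocyte-like nuclei of MASH, though the diets overlapped for the endothelial list. The 8 endothelial markers summed to 22.2 to 33.7 CPM in chow against 32.7 to 42.7 CPM in MASH, the 9 stellate markers to 40.6 to 42.9 and 84.9 to 96.5 CPM, and the 8 macrophage markers to 17.2 to 23.6 and 43.4 to 65.8 CPM. The 8 cholangiocyte markers summed to 12.3 to 27.6 CPM in chow and 87.2 to 106 CPM in MASH, and no marker of these lists was at 0. The endothelial-like nuclei of MASH, where Notch1 stood at 277 and 408 CPM, had an endothelial marker sum of at least 4290 CPM. The part of these markers in the Notch1 result was not tested. In turn, the 8 hepatocyte markers summed to 10930 to 25850 CPM in endothelial-like nuclei of chow, beside 13820 to 17810 CPM in hepatocyte-like nuclei. In MASH these sums were 5100 to 10300 and 7622 to 8074 CPM. The part of hepatocyte RNA in the levels of other lineages, such as those of Hes1, was not tested.

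**Figure D4:**
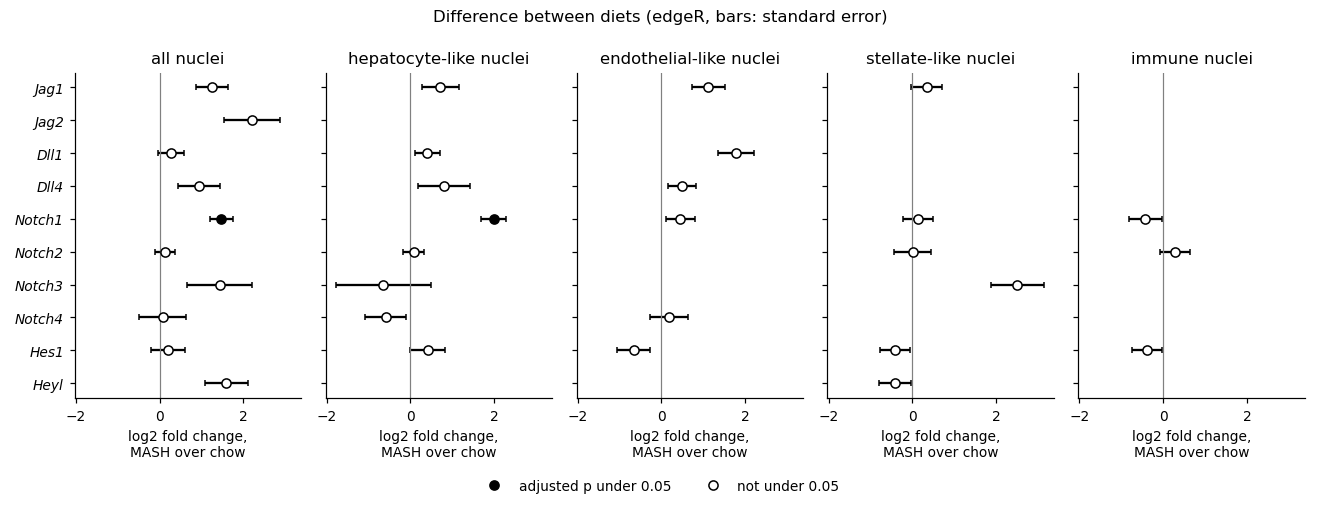
Log2 fold change (MASH against chow) of each tested Notch gene in all nuclei and in 4 lineages, with bars of 1 SE from the edgeR fit and filled points where the adjusted p is under 0.05. Notch1 is called in all nuclei (1.47) and in hepatocyte-like nuclei (1.99), and no other point is filled.

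Over all nuclei of a library, Notch1 gave 42.8, 26.2 and 17.7 CPM in chow against 99.3 and 97.7 CPM in MASH. It rose 2.78-fold (log2 fold change 1.47 ± 0.27, adjusted p = 0.019) and was 1 of 10 members called, while 15.8% of 16360 genes were called in either direction. The median over the members was 1.10, beside -0.03 over all genes. The call was lost without chow replicate 2 (adjusted p = 0.053), MASH replicate 1 (0.11) or MASH replicate 2 (0.074). Jag1 over all nuclei was 20.9, 12.1 and 6.57 CPM in chow against 26.6 and 51.6 CPM in MASH, with no overlap, and its log2 fold change of 1.25 ± 0.38 missed the threshold (adjusted p = 0.060). DESeq2 called Jag1 (adjusted p = 0.022), Jag2 (0.044) and Heyl (0.028) in addition to Notch1. In edgeR Jag2 had 2.21 ± 0.67 (adjusted p = 0.061) and Heyl 1.59 ± 0.52 (adjusted p = 0.074). Jag2 passed the filter on low counts only with the MASH libraries, where it is high, so its fitted size rests on few chow UMIs. The Heyl difference over all nuclei stood beside a log2 difference of -0.43 ± 0.38 (adjusted p = 0.66) within stellate-like nuclei, which numbered 478, 180 and 396 in chow against 869 and 1346 in MASH.

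Within endothelial-like nuclei 0 of 6 tested members were called by edgeR, 2 had an unadjusted p under 0.05, and DESeq2 called 0, while 0.838% of 8595 genes were called. Dll1 came nearest, with a log2 fold change of 1.78 ± 0.42 (adjusted p = 0.083, or 0.011 with no filter on low counts, where it was called), followed by Jag1 with 1.12 ± 0.39 (adjusted p = 0.31). Within stellate-like nuclei 0 of 6 were called by edgeR, 1 had an unadjusted p under 0.05, and DESeq2 called 0, while 0.895% of 8047 genes were called. That member was Notch3, with 2.50 ± 0.64 (adjusted p = 0.12, or 0.0070 with no filter, where it was called). Dll1 in endothelial-like and Notch3 in stellate-like nuclei passed the filter on low counts only with the MASH libraries, where they are high. Chow held 3, 1 and 1 stellate-like Notch3 UMIs, so that fitted size rests on few counts. Without chow replicate 3, whose stellate-like and sinusoidal-like nuclei formed clusters of their own, the direction turned for Notch4 in endothelial-like nuclei (-0.20) and for Notch1 in stellate-like nuclei (-0.064), neither of them called.

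Immune nuclei (0 of 3 members called, with 0 at an unadjusted p under 0.05) and macrophage-like nuclei (0 of 3 called, with Hes1 alone under 0.05) gave no call in edgeR, and DESeq2 called 0 in both. The background was 0.419% of 7637 genes in immune and 1.16% of 5968 in macrophage-like nuclei. Hes1 in macrophage-like nuclei had a log2 fold change of -0.83 ± 0.37 (adjusted p = 0.41). Chow macrophage-like nuclei lay mostly in a cluster led by Cd163, Clec4f and Timd4, which are genes of resident Kupffer cells, and those of MASH in a cluster led by Gpnmb, Mmp12 and Ccr2. In cholangiocyte-like nuclei a test was possible only at a minimum of 5 nuclei per library. There 0 of 2 members were called by edgeR, 0 had an unadjusted p under 0.05, and DESeq2 called 0, while 1.89% of 794 genes were called. Jag1 had 0.77 ± 0.57 (adjusted p = 0.60) and Hes1 -0.89 ± 0.42 (adjusted p = 0.37).

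Since Notch1 was called in hepatocyte-like nuclei and in no other lineage, the difference of the diet effect between lineages was itself tested. The diet effect on Notch1 was larger in hepatocyte-like than in endothelial-like nuclei by 1.68 ± 0.38 on the log2 scale (adjusted p = 0.00056), than in stellate-like nuclei by 1.88 ± 0.36 (adjusted p = 1.8e-05) and than in immune nuclei by 2.21 ± 0.48 (adjusted p = 0.023). In these 3 tests 2 of 9, 3 of 10 and 2 of 10 tested members were called, beside 4.43, 5.81 and 2.86% of all genes. The other calls, for Hes1, Heyl, Notch3 and Jag1, were each lost when any 1 of several libraries was left out, and Heyl in hepatocyte-like and Jag1 in immune nuclei had at most 2 UMIs in any chow library. Without chow replicate 3 the difference from endothelial-like nuclei was 1.21 (adjusted p = 0.11) and that from immune nuclei 1.60 (adjusted p = 0.053). Without MASH replicate 1 these were 1.32 (adjusted p = 0.39) and 2.27 (adjusted p = 0.068), and without MASH replicate 2 the differences from stellate-like and immune nuclei were 1.64 (adjusted p = 0.088) and 2.17 (adjusted p = 0.14).

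Hepatocytes differ along the lobule from the portal to the central vein, and each library's hepatocyte-like nuclei were therefore split into 3 parts of equal size by a score of zonal genes that held no Notch gene. Of the 6 members tested, 3 differed between the pericentral and periportal parts, while 19.7% of 12333 genes were called. Hes1 was lower in the pericentral part, at 0.430, 0.700 and 0.701 times the periportal level in chow against 0.575 and 0.579 times in MASH (log2 difference -0.85 ± 0.10, adjusted p = 0.0012). Notch2 was lower as well, at 0.654, 0.604 and 0.849 times in chow against 0.625 and 0.605 times in MASH (-0.67 ± 0.08, adjusted p = 0.0013). Jag1 was higher in the pericentral part, at 5.32, 2.02 and 1.55 times in chow against 1.46 and 1.54 times in MASH (0.96 ± 0.25, adjusted p = 0.029). All 5 libraries had the same direction for each of these 3 genes. Without chow replicate 2 the Jag1 call was lost (0.97, adjusted p = 0.083).

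**Figure D5:**
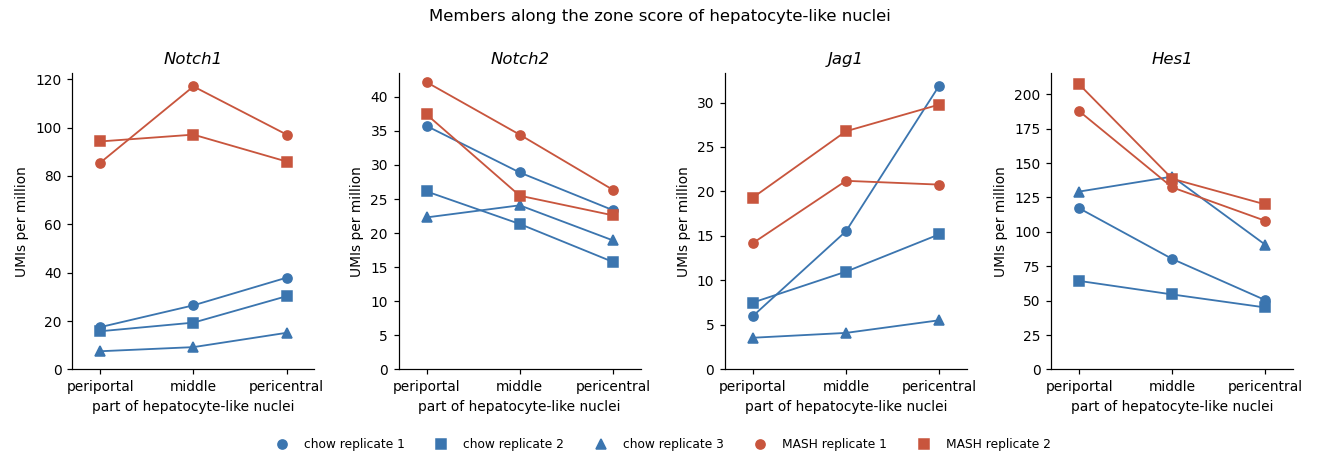
Level in CPM (y axes) of Notch genes in the periportal, middle and pericentral parts (x axes) of hepatocyte-like nuclei, with 1 line per library and colours for diet. In every library Notch2 and Hes1 lie lower and Jag1 lies higher in the pericentral than in the periportal part, while Notch1 lies higher there in the 3 chow libraries and MASH replicate 1, and stands at 85.5 CPM or above in every part in MASH.

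The zonal difference of Notch1 in chow was smaller in MASH. In chow its periportal level was 17.5, 15.8 and 7.51 CPM and its pericentral level 37.9, 30.3 and 15.1 CPM, or 2.17, 1.92 and 2.01 times the periportal level. In MASH the periportal level was 85.5 and 94.3 CPM and the pericentral level 97.1 and 86.0 CPM, or 1.14 and 0.912 times. The zonal difference in MASH minus that in chow was -0.92 ± 0.13 on the log2 scale (adjusted p = 0.013), and Notch1 was 1 of 6 members called, beside 2.64% of 12333 genes. Without MASH replicate 1 this difference was -1.06 (adjusted p = 0.11) and without MASH replicate 2 it was -0.77 (adjusted p = 0.23). The 7 periportal genes behind the score summed to 3403 to 3636 CPM in the hepatocyte-like nuclei of chow and 1979 to 2011 CPM in those of MASH, and the part of this difference in the result was not tested. Averaged over diets, the zonal difference of Notch1 was 0.48 ± 0.17 (adjusted p = 0.089). Dll1 had pericentral to periportal ratios of 0.486, 0.660 and 0.836 in chow against 1.22 and 0.955 in MASH, and its difference between diets was 0.82 ± 0.24 (adjusted p = 0.12).

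The remaining genes of the pathway were taken from a list of 52 that covered other ligands, ligand uptake, sugar modification of the receptors, receptor cleavage, inhibitors, the nuclear complex and further targets. In hepatocyte-like nuclei 43 of them were tested, 6 rose and 2 fell (18.6% called, beside 13.3% of all genes), and the median log2 fold change was -0.07, beside -0.02 over all genes. Ccnd1, which encodes cyclin D1 and drives entry into the cell cycle, rose from 3.73, 10.0 and 5.09 CPM to 55.2 and 44.2 CPM (log2 fold change 2.65 ± 0.45, adjusted p = 0.015). Dtx3, of the Deltex family that acts on receptor turnover, rose from 1.62, 1.14 and 1.32 CPM to 12.4 and 12.1 CPM (2.84 ± 0.33, adjusted p = 0.0049). Lfng, the Fringe glycosyltransferase that alters which ligands a receptor answers to, rose from 0.302, 0.270 and 0.405 CPM to 2.31 and 2.12 CPM (2.38 ± 0.49, adjusted p = 0.024). None of these groups overlapped, which adds no support, since the genes were picked by the test on the same libraries. Lfng passed the filter on low counts only with the MASH libraries, so its fitted size rests on low chow counts.

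The ubiquitin ligase genes Neurl1a (3.88 ± 0.74, adjusted p = 0.020) and Neurl3 (2.58 ± 0.50, adjusted p = 0.021) rose in hepatocyte-like nuclei too, and both were below 4 CPM in every library. The co-repressor genes of the Groucho family moved apart. Tle3 rose from 25.9, 22.6 and 24.5 CPM to 77.9 and 64.1 CPM (1.22 ± 0.25, adjusted p = 0.023), and Tle4 fell from 110, 114 and 167 CPM to 55.7 and 64.6 CPM (-1.50 ± 0.37, adjusted p = 0.042). Psenen, a subunit of the gamma-secretase that cuts the receptor, fell as well (-1.13 ± 0.30, adjusted p = 0.0498). Rbpj itself had levels of 22.8, 31.3 and 24.9 CPM in chow against 38.0 and 39.8 CPM in MASH and was not called.

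Over all nuclei 47 of the 52 pathway genes were tested, of which 8 rose and 2 fell (21.3% called, beside 15.8% of all genes). Hey1, a target related to Heyl, rose from 0.221, 0.126 and 0.0685 CPM to 2.23 and 2.88 CPM. Its log2 fold change was 3.88 ± 0.57 (adjusted p = 0.011). Hey1 passed the filter on low counts only through the MASH libraries, so this fitted size rests on few chow UMIs. Its hepatocyte-like level was at most 0.490 CPM in any library. Ccnd1 (2.22 ± 0.29), Lfng (2.17 ± 0.46), Neurl1a (3.06 ± 0.71), Neurl1b (2.96 ± 0.69), Tle3 (1.07 ± 0.25) and Aph1c, another gamma-secretase subunit (2.16 ± 0.51), rose and Tle4 fell (-1.46 ± 0.38). In endothelial-like, stellate-like, immune and macrophage-like nuclei edgeR called 0 of 36, 34, 31 and 27 tested pathway genes, of which 2, 4, 2 and 0 had an unadjusted p under 0.05, and DESeq2 called 0 in each.

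Between hepatocyte zones 12 of 35 tested pathway genes were called, 1 higher and 11 lower in the pericentral part (34.3%, beside 19.7% of all genes, of which 1224 were higher and 1208 lower). The nuclear complex genes Maml3 (log2 difference -1.18 ± 0.13), Tle4 (-1.30 ± 0.21) and Spen (-0.27 ± 0.05) were lower there. So were the inhibitor gene Numb (-0.23 ± 0.06) and the Deltex family gene Dtx3 (-0.90 ± 0.19). Sox9, a biliary transcription factor and a Notch target, was lower as well (-1.98 ± 0.24, adjusted p = 0.0012), as was Ccnd1 (-0.75 ± 0.16). The zonal difference of Tle4 was smaller in MASH (difference between diets 1.17 ± 0.12, adjusted p = 0.0045), the only 1 of 35 pathway genes called in that test.

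The genes whose level over 23 sums of library and lineage was most like that of a member were picked from 14661 genes by Pearson correlation of log2(CPM + 5). These sums share libraries and differ in depth, so the values are descriptions. Jag1 was most like Pkd2 (r = 0.937), the polycystin 2 gene of biliary and kidney epithelium, and Cdc42ep1 (0.910). Dll4 was most like Jam2 (0.977) and Csgalnact1 (0.973), and Notch4 like the endothelial transcription factor gene Sox17 (0.953) and Arhgef15 (0.949). Heyl was most like Lama1 (0.981) and Ngfr (0.979), and Notch3 like Pi15 (0.909). Notch1 was most like Stx2 (0.950) and Fer (0.926), Notch2 like Akap13 (0.878) and Ank2 (0.826), and Dll1 like Pard3b (0.848) and Yes1 (0.843). Hes1 was most like the unnamed transcripts Gm16196 (0.867) and Gm49066 (0.839), and Jag2 had under 100 UMIs in these sums.

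Rbpj binds the letters TGGGAA, and the 250 bases before each gene's start were searched for them on both strands in RefSeq windows of GRCm38.p6. The targets Hes1 and Heyl had no window, so the search covered the ligands and receptors. None of their 9 windows held these letters, which says only that they are not in these windows, beside 21.6% of all 32851 windows.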

How the data were processed

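Nuclei from snap-frozen liver were sorted and sequenced with 10x 3' chemistry. The authors aligned reads with Cell Ranger (8.0.1) to GRCm38, leaving out intronic reads, and deposited raw UMI counts per gene and nucleus, 1 matrix per library. Here nuclei with at least 300 genes were kept and doublets were called by Scrublet at an assumed 0.8% per 1000 nuclei and removed (585 to 1333 per library). Clustering used Seurat (5.3.0) on 3000 variable genes from which the Notch pathway was removed (15 components with integration at resolution 0.2, then 30 components at resolution 0.5 for the non-hepatocytes). Of 19 marker lists, those of cell types were used to name clusters. A first cluster was taken as hepatocyte-like where no other list had 3 raised markers and the median mitochondrial share was under 10%. Raised hepatocyte markers were not required, and their mean log2 folds were 0.18 and -0.02 in these clusters. The other clusters were named by their leading list. They were left unnamed where its marker folds were weak, another list had more leading genes or doublet scores were high.

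UMIs were summed per library and lineage and tested in edgeR (4.0.16; TMM, filterByExpr with a minimum count of 10, quasi-likelihood F-test, two-sided, Benjamini-Hochberg adjustment over all genes tested, threshold 0.05), with at least 20 nuclei per library. The cholangiocyte-like minimum of 5 nuclei and the interaction tests of diet with lineage or zone, with the library as a block, were added after the data were seen. Shares were compared by exact permutation tests. In data simulated from these libraries with 200 genes changed 4-fold, 60.5% were recovered over all nuclei and 70.0% in hepatocyte-like nuclei. DESeq2 (1.42.0), other size factors, Storey q-values, other filters, kept doublets, nuclei taken by the lineage genes alone and each library left out were tried as alternatives.

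The members, marker lists and pathway list were chosen with earlier results of these data known. All 10 members are named, and other pathway genes only where they passed the threshold, at most 8 per comparison by smallest p, beside Rbpj. Some genes that this rule or the likeness measure would name are not reported here. Rbpj, and the other genes given for clusters and lineages, were added after their values were seen. The positions come from the GENCODE annotation of GRCm38.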

Additional observations from a re-analysis of the deposited data

Results flagged for a closer look

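Every result here is a difference between the diet effects of 2 lineages or between the zonal effects of the 2 diets, taken from an interaction test in edgeR with Benjamini-Hochberg adjustment over all genes. The diet effect on Notch1 was larger in hepatocyte-like nuclei than in endothelial-like nuclei by 1.68 (log2), than in stellate-like nuclei by 1.88 and than in immune nuclei by 2.21. The pericentral to periportal difference of Notch1 was lower in MASH than in chow by this measure, at -0.92.

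The diet effect on Hes1 was larger in hepatocyte-like than in endothelial-like nuclei by 1.24 ± 0.39 (adjusted p = 0.036). The CPM levels of the diets did not overlap in hepatocyte-like nuclei, whereas those in endothelial-like nuclei did. The call was lost with each library left out, at 0.87 to 1.499.

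The fitted difference for Heyl was 3.37 ± 0.98 between hepatocyte-like and stellate-like nuclei (adjusted p = 0.014), where its hepatocyte-like UMIs numbered 1, 0 and 2 in chow and 8 and 8 in MASH. The fitted difference for Notch3 was -3.06 ± 0.98 between the same lineages (adjusted p = 0.036), and without chow replicate 3, which held 39 of the hepatocyte-like Notch3 UMIs of chow against 1 and 9 in the other chow libraries, the difference was -0.81 (adjusted p = 0.88). The fitted difference for Jag1 was -4.05 ± 0.96 between hepatocyte-like and immune nuclei (adjusted p = 0.034), where immune nuclei held 1, 0 and 0 Jag1 UMIs in chow. Heyl and Notch3 passed the filter on low counts only through stellate-like nuclei. These 2 fitted sizes rest on the few counts of hepatocyte-like nuclei and are no measure of a difference. The fitted size of Jag1 rests on the few immune UMIs of chow and is no measure of a difference either. The Heyl call was lost without chow replicate 2 (adjusted p = 0.11), MASH replicate 1 (0.11) or MASH replicate 2 (0.21). The Jag1 call was lost without chow replicate 2 (0.087), chow replicate 3 (0.081), MASH replicate 1 (0.11) or MASH replicate 2 (0.25). The Notch3 call was lost without either MASH library as well (0.41 and 0.29).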

How the results depend on the processing

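Numbers of members called changed with the choice of tool, filter and libraries. Over all nuclei 1 member was called, against 4 by DESeq2, 4 by Storey q-values, 2 with no filter on low counts and 0 to 4 with a library left out. In hepatocyte-like nuclei 1 was called, against 2 with doublets kept and 0 to 2 with a library left out. With no filter on low counts, 2 members were called in endothelial-like nuclei (Dll1 at an adjusted p of 0.011 among them), and 1 each in stellate-like (Notch3, 0.0070), immune and macrophage-like nuclei, against 0. The number of zonal calls was 3, and 2 to 4 with a library left out. All genes called ranged from 305 to 4862 over all nuclei (2592 in the report) and from 152 to 3817 in hepatocyte-like nuclei (1982), in both cases lowest without MASH replicate 2 and highest with Storey q-values. The causes were not tested.

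Among the members and source shares whose direction was followed, it changed only for members that were not called and for 1 source share. Not every source share was followed. With nuclei taken by the lineage genes, the log2 fold change was -0.015 for Notch2 in hepatocyte-like nuclei, 0.31 for Hes1 in cholangiocyte-like nuclei, -0.047 for Notch4 and 0.051 for Hes1 in endothelial-like nuclei, 0.058 for Hes1 in stellate-like nuclei, and 0.021 for Notch1 and -0.13 for Notch2 in immune nuclei. With that choice the hepatocyte-like share of Notch1 UMIs differed by diet by -23.6 percentage points, in place of 0.541, and with a library left out it differed by -4.03 to 7.93 points. In stellate-like nuclei Notch2 was at -0.0025 by DESeq2 and -0.014 with RLE size factors. With a library left out, Notch2 ranged from -0.0078 to 0.38 over all nuclei, from -0.15 to 0.27 in hepatocyte-like, from -0.18 to 0.36 in stellate-like, from -0.068 to 0.57 in immune and from -0.15 to 0.59 in macrophage-like nuclei. Notch4 ranged from -0.27 to 0.80 over all nuclei, from -0.20 to 0.72 in endothelial-like nuclei and from -0.11 to 0.15 between zones, Hes1 from -0.070 to 0.68 over all nuclei and Notch1 from -0.26 to 0.46 in stellate-like nuclei. The causes were not tested.

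With the replicate number as a block, 1 member was called over all nuclei and 1 in hepatocyte-like nuclei, as without it. Notch4 turned to -0.083 over all nuclei and -0.16 in endothelial-like nuclei, Notch1 to -0.082 in stellate-like nuclei and Notch3 to 1.21 in hepatocyte-like nuclei. Chow and MASH replicates share 2 numbers, and the deviations of same-numbered libraries correlated at -0.155 and -0.254. The deviations of 2 MASH libraries from their mean mirror each other, so these values cannot decide whether the numbers are pairs. The numbers were not taken as pairs.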
